A study of Drosophila melanogaster with 12 samples.

Results

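Transcripts of 8 genes of the mitochondrial genome were followed in Drosophila melanogaster embryos of 4 genotypes. The genes were COX1, COX2, COX3, ATP6, ATP8, CYTB, lrRNA and srRNA, and they were found by their gene symbols, which matched 8 of the 17868 genes in the count table. The mitochondrially encoded subunits of complex I were not among them and were used for comparison. RNA was sequenced from Drp1SG;SOD2i embryos, called the combined genotype from here on, from Drp1SG embryos, from SOD2i embryos and from Control embryos, with 3 biological replicates of each. Drp1 is the GTPase that carries out mitochondrial fission, and Sod2 detoxifies superoxide inside mitochondria. What SG stands for, which driver or alleles were used and what the Control embryos carried is not given in the labels. SOD2i is read here as RNA interference of Sod2.

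Each replicate was a hand-sorted pool of 70 to 100 cellularizing and gastrulating embryos. Embryos came either from a 1 h collection aged for 1.5 to 2 h or, where few eggs were laid, from a direct collection of 2.5 to 3 h, at 28 C. Which genotype had which window is not stated, so the window and the genotype cannot be told apart. Libraries were made by poly(T) capture. The level of a mitochondrial transcript in such a library is therefore the level of its captured, tailed form. In these pools of whole embryos, fewer mitochondria, fewer genome copies per mitochondrion and less RNA per genome copy cannot be told apart.

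The mitochondrial genome of animals is a small circle that is transcribed from both strands into long precursor RNAs. The precursors are cut, mostly at the transfer RNAs that lie between the coding genes, and the released ribosomal and messenger RNAs receive short tails. Neighbouring genes can thus be made together and still differ in level, because each released RNA has its own stability. COX1, COX2 and COX3 encode the core of cytochrome c oxidase (complex IV), which passes electrons to oxygen. ATP6 and ATP8 encode membrane subunits of the ATP synthase (complex V), CYTB encodes the cytochrome b of complex III, and lrRNA and srRNA are the RNAs of the large and the small subunit of the mitochondrial ribosome. In the early fly embryo, mitochondria and their genomes are inherited from the egg.

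Libraries held 61757756 to 91949037 reads in genes, and mitochondrially encoded genes took 5.94% to 12.1% of them. Sod2 stood at 2.51 to 3.54 CPM in the combined genotype and 1.38 to 2.34 CPM in SOD2i, against 46.7 to 53.5 CPM in Drp1SG and 50.3 to 51.6 CPM in Control. Drp1 stood at 42.9 to 44.2 CPM in the combined genotype, 71.0 to 103.8 CPM in Drp1SG and 18.6 to 24.1 CPM in SOD2i, against 34.2 to 38.8 CPM in Control. CPM, the usual depth-scaled read count, was computed on library sizes scaled by the trimmed mean of M-values (TMM). Of 9 markers of cellularizing and gastrulating embryos, 6 had reads and summed to 1824 to 2288 CPM in the combined genotype, 1289 to 1572 CPM in Drp1SG, 2526 to 2634 CPM in SOD2i and 1449 to 2680 CPM in Control. The other markers, nullo, bnk and Sry-alpha, had no read in any library, where 3 counts correspond to 0.0326 to 0.0486 CPM on unscaled library totals. The follicle cell marker Cp36 was also at 0 in all libraries, and Vm26Ab reached at most 0.107 CPM. Markers of late neurons and glia summed to at most 4.35 CPM, those of haemocytes to at most 7.90 CPM, with NimC1 at 0 outside the combined genotype, and those of muscle to 46.6 CPM in combined genotype replicate 2 and at most 16.7 CPM elsewhere.

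Per annotated length, lrRNA was the most abundant of the 8 transcripts. It took 4.27% to 9.28% of all counts and averaged 49752 ± 14767 CPM per kb over the 12 libraries (SD, n = 12). COX3 followed at 7230 ± 1688 CPM per kb and COX1 at 5966 ± 1510 CPM per kb. COX3 lay above COX1 and COX1 above COX2 in 12 of 12 libraries each. COX2 averaged 2589 ± 514 CPM per kb and CYTB 2470 ± 867 CPM per kb, and COX2 was the higher of this pair in 7 of 12 libraries, so their order was not set. ATP6 averaged 1407 ± 446 CPM per kb and lay below CYTB in 12 of 12 libraries. These 6 genes stood above every mitochondrially encoded complex I gene on average, and ATP6 lay above ND1, the highest of those, in 12 of 12 libraries.

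ATP8 and srRNA stood apart from the others. ATP8 averaged 43.4 ± 11.9 CPM per kb and srRNA 8.57 ± 4.04 CPM per kb. The annotated ATP8 gene is 162 nt long and shares 7 nt with ATP6, which in turn shares 1 nt with COX3. ATP8 and ATP6 are carried on 1 messenger RNA in animals, yet ATP8 received 349 to 813 reads per library where ATP6 received 44095 to 96758. ATP8 reads came to 0.970 ± 0.223 per 100 ATP6 reads in the combined genotype, 0.663 ± 0.205 in Drp1SG, 0.813 ± 0.391 in SOD2i and 0.690 ± 0.123 in Control (SD, n = 3 each). The small ribosomal RNA had 239 to 843 reads, against 2984408 to 6000287 reads of lrRNA. How reads that span overlapping genes were counted, and whether ribosomal reads were removed before counting, is not given in the sources used here. The annotation used for counting is not given there either, so the lengths, taken from Ensembl release 115, make the values per kb approximate.

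**Figure D1:**
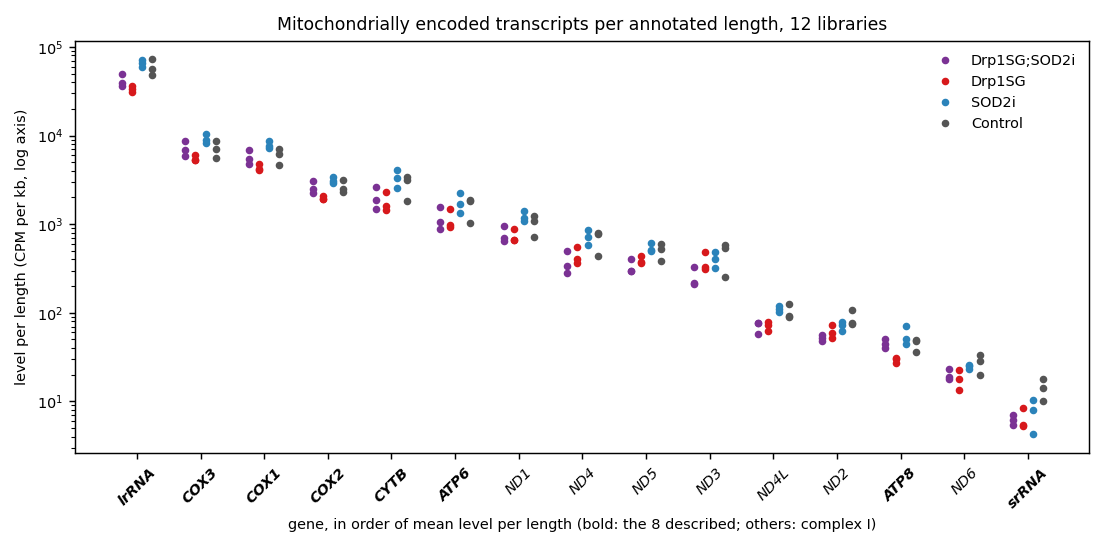
Level per annotated length of 15 mitochondrially encoded genes in 12 libraries, in CPM per kb on a log axis; each point is 1 library, coloured by genotype, and genes run from the highest to the lowest mean. The 8 genes described are in bold: lrRNA stood highest at a mean of 49752 CPM per kb, and srRNA lowest at 8.57 CPM per kb.

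The large ribosomal RNA, lrRNA (Dmel_CR34094), was lowest in Drp1SG embryos. It stood at 51726, 65056 and 48117 CPM in the combined genotype, 44655, 47591 and 41086 CPM in Drp1SG and 86655, 93624 and 77812 CPM in SOD2i, against 74263, 64461 and 95420 CPM in Control. Every Drp1SG library lay below every library of the other 3 genotypes. The combined genotype lay below SOD2i in every library and overlapped Control through its replicate 2. In Drp1SG, lrRNA fell to 56.9% of the Control mean, a log2 fold change of -0.81 ± 0.15 (SE; adjusted p = 0.00397, edgeR quasi-likelihood test, Benjamini-Hochberg over 9863 genes). It also fell in the combined genotype relative to SOD2i, with a log2 fold change of -0.65 ± 0.15 (adjusted p = 0.0132), which became 0.0518 without combined genotype replicate 3. Against Control, lrRNA of the combined genotype differed by -0.51 ± 0.15, with an adjusted p of 0.0616 that missed the threshold of 0.05.

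The small ribosomal RNA, srRNA (Dmel_CR34096), was highest in Control embryos. It stood at 4.88, 5.59 and 4.25 CPM in the combined genotype, 4.29, 6.68 and 4.16 CPM in Drp1SG and 6.32, 8.14 and 3.35 CPM in SOD2i, against 11.0, 8.05 and 14.03 CPM in Control. All libraries of the combined genotype and of Drp1SG lay below all Control libraries, whereas SOD2i replicate 2 lay just above the lowest Control library. The log2 fold change against Control was -1.17 ± 0.31 in the combined genotype (adjusted p = 0.0376) and -1.13 ± 0.31 in Drp1SG (adjusted p = 0.0258), so srRNA fell in both. In SOD2i the difference of -0.89 ± 0.31 was not called (adjusted p = 0.0554, edgeR), whereas the authors' deposited table gives -0.89 with an adjusted p of 0.0432. With single libraries left out the differences stayed large but the calls did not all hold. The Drp1SG call was lost without Control replicate 1, Control replicate 3, Drp1SG replicate 1 or Drp1SG replicate 3, with log2 fold changes of -1.13, -0.94, -1.005 and -0.997 and adjusted p of 0.0517, 0.0805, 0.0914 and 0.0942 in that order. The call in the combined genotype was lost without any 1 of its own 3 replicates (adjusted p = 0.109, 0.0770 and 0.135 for replicates 1, 2 and 3, at -1.15, -1.25 and -1.06), without Control replicate 1 (0.0603) or 3 (0.116), and without Drp1SG replicate 3 (0.05002).

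Among the oxidase messages, COX2 (Dmel_CG34069) varied least within a genotype. Its within-genotype SD in log2 CPM was 0.17, and the other 7 transcripts ranged from 0.20 for lrRNA to 0.44 for srRNA. The median for the 1957 genes with at least 100 CPM was 0.102, so the transcripts of that level varied more between replicates than most such genes. ATP8 and srRNA, at 4.35 to 11.4 and 3.35 to 14.03 CPM, lay below that level and cannot be set against this median. COX2 stood at 1692, 2087 and 1546 CPM in the combined genotype, 1331, 1406 and 1319 CPM in Drp1SG and 2083, 2331 and 2015 CPM in SOD2i, against 1700, 1593 and 2182 CPM in Control. All Drp1SG libraries lay below all libraries of the other 3 genotypes. COX2 fell in Drp1SG relative to Control, by 0.43 ± 0.13 on the log2 scale (adjusted p = 0.0348, edgeR). The call was lost without Control replicate 3 (adjusted p = 0.0920) and without Drp1SG replicate 1, 2 or 3 (0.0987, 0.0715 and 0.0971).

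COX1 (Dmel_CG34067), the catalytic subunit, stood at 8392, 10518 and 7266 CPM in the combined genotype, 6427, 7409 and 6287 CPM in Drp1SG and 11574, 13420 and 10993 CPM in SOD2i, against 9498, 7233 and 10941 CPM in Control. Every SOD2i library lay above every library of the other 3 genotypes, by a narrow margin over Control replicate 3, while Drp1SG overlapped Control through Control replicate 2. The log2 fold change against Control was -0.46 ± 0.16 in Drp1SG (adjusted p = 0.0687, edgeR) and 0.38 ± 0.16 in SOD2i (adjusted p = 0.115), neither of which was called. The Drp1SG difference passed the threshold without Control replicate 2 (adjusted p = 0.0241) or SOD2i replicate 2 (0.0475), and in the authors' deposited table, where its adjusted p is 0.0305. COX3 (Dmel_CG34074), the third core subunit, averaged 5669 ± 1149 CPM in the combined genotype, 4369 ± 364 CPM in Drp1SG and 7195 ± 831 CPM in SOD2i, against 5584 ± 1256 CPM in Control (SD, n = 3 each). COX3 was called in no comparison, and its differences from Control were 0.02 in the combined genotype, -0.35 in Drp1SG and 0.37 in SOD2i on the log2 scale.

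The 3 oxidase messages kept close proportions to one another. COX3 reads per 100 COX1 reads were 64.9 ± 0.960 in the combined genotype, 65.2 ± 0.739 in Drp1SG and 59.9 ± 0.741 in SOD2i, against 60.4 ± 2.27 in Control. COX2 reads per 100 COX1 reads were 20.4 ± 0.753 in the combined genotype, 20.2 ± 1.09 in Drp1SG and 17.9 ± 0.491 in SOD2i, against 20.0 ± 2.07 in Control (SD, n = 3 each). All 6 libraries with Drp1SG had more COX3 per COX1 than the 6 without it, a pattern seen in the values and not tested.

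ATP6 (Dmel_CG34073) and CYTB (Dmel_CG34090) spread widely within genotypes, with SDs of 0.42 and 0.41 in log2 CPM. ATP6 stood at 711, 1064 and 588 CPM in the combined genotype, 656, 1011 and 621 CPM in Drp1SG and 1129, 1497 and 904 CPM in SOD2i, against 1244, 694 and 1281 CPM in Control. CYTB stood at 2116, 3011 and 1671 CPM in the combined genotype, 1826, 2639 and 1652 CPM in Drp1SG and 3778, 4656 and 2887 CPM in SOD2i, against 3577, 2060 and 3826 CPM in Control. In both genes, Control replicate 2 was the low Control library, and replicate 2 was the high library of the other 3 genotypes. Neither gene was called in any of the 6 comparisons. The widest difference for CYTB was between the combined genotype and SOD2i, at -0.74 ± 0.28 on the log2 scale (adjusted p = 0.0879, edgeR), and without combined genotype replicate 2 it was -0.99 with an adjusted p of 0.0477.

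ATP8 (Dmel_CG34072), the short accessory subunit of the synthase, stood at 6.50, 8.29 and 7.14 CPM in the combined genotype, 4.90, 4.35 and 5.05 CPM in Drp1SG and 7.13, 8.16 and 11.4 CPM in SOD2i, against 7.73, 5.78 and 7.89 CPM in Control. All Drp1SG libraries lay below all libraries of the other 3 genotypes. ATP8 fell in Drp1SG relative to Control, by 0.58 ± 0.19 on the log2 scale, with an adjusted p of 0.0498 (edgeR) at the edge of the threshold. It was 0.62 ± 0.19 higher in the combined genotype than in Drp1SG, which was not called (adjusted p = 0.0555). The Drp1SG call was lost without Control replicate 1 or 3 (adjusted p = 0.116 and 0.128), without Drp1SG replicate 1, 2 or 3 (0.119, 0.174 and 0.0989) and without combined genotype replicate 1, 2 or 3 (0.0706, 0.0652 and 0.0776). It was also lost with DESeq2 size factors (0.0503), unscaled totals (0.0651), no filter on low counts (0.0666) and voom (0.0618). In all, the call was kept in 9 of 22 alternatives, with log2 fold changes of -0.70 to -0.51.

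**Figure D2:**
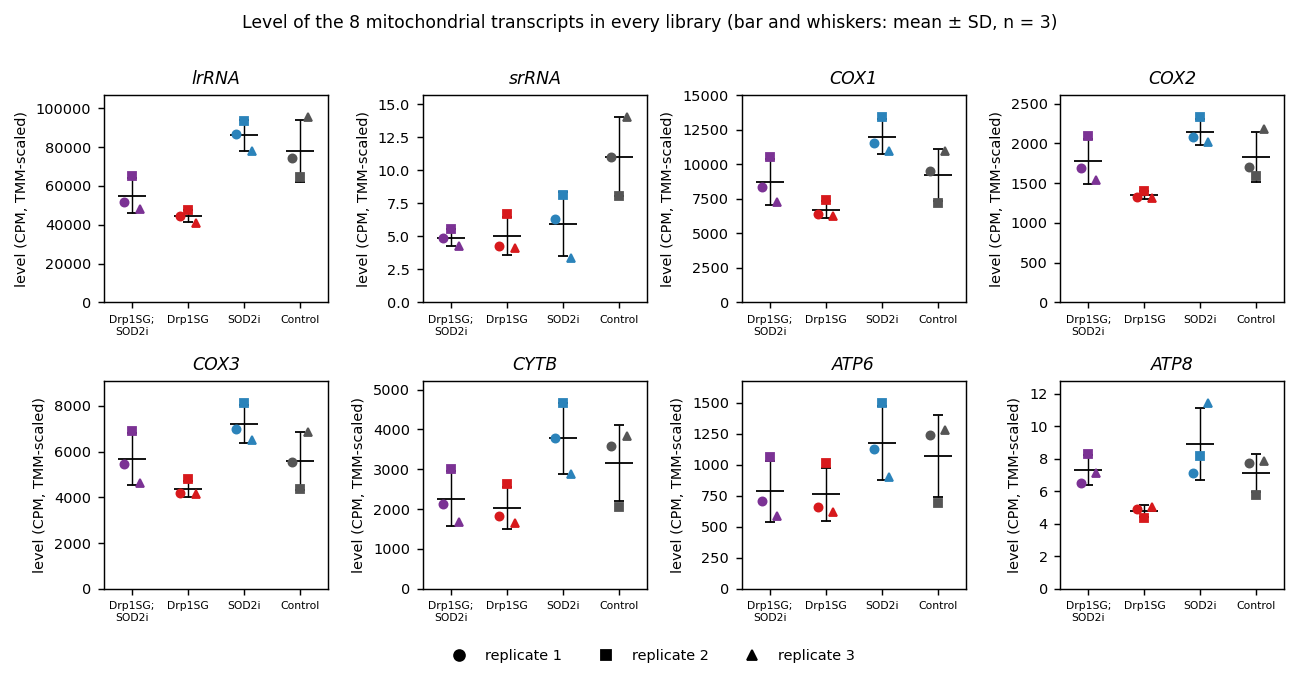
Level of each of the 8 transcripts in CPM, with 1 point per library (circle, square and triangle for replicates 1, 2 and 3), bars at the mean and whiskers of 1 SD (n = 3 per genotype); each panel has its own axis from 0. The 3 Drp1SG libraries lay below all others for lrRNA, COX2 and ATP8, and srRNA was highest in Control, at 8.05 to 14.03 CPM.

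The comparison of Drp1SG with Control asks how these transcripts differ between embryos with and without the Drp1 change. The collection window cannot be told apart from that change. Of the 8, lrRNA, srRNA, COX2 and ATP8 fell and 0 rose, so 4 of 8 were called lower. Of the 9863 tested genes, 18.6% were called, 8.83% lower and 9.72% higher. The other 4 had log2 fold changes of -0.35 for COX3, -0.46 for COX1, -0.49 for ATP6 and -0.63 for CYTB, with adjusted p of 0.0687 to 0.269 (edgeR). The median over the 8 was -0.54, and over all tested genes it was 0.01. The authors' deposited table, from a DESeq2 fit, calls 5 of the 8 lower, the same 4 and COX1. Its share of all genes called is not given here. In the alternatives tried, the number called ranged from 1 to 5. It was 3 with DESeq2 size factors, unscaled totals, no filter and voom. It was 1 without Control replicate 3, Drp1SG replicate 1 or Drp1SG replicate 3, and 2 without Control replicate 1 or Drp1SG replicate 2. The lrRNA call was kept in 22 of 22 alternatives, with an adjusted p of at most 0.0193.

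Some transcripts that the egg supplies and the early embryo clears rose in Drp1SG. Of 16 such transcripts, 6 were called higher and 0 lower relative to Control, where 9.72% of all tested genes were called higher and 8.83% lower (edgeR). Their summed level was 1719 to 2276 CPM in the combined genotype, 2112 to 2835 CPM in Drp1SG, 1138 to 2401 CPM in SOD2i and 1053 to 1926 CPM in Control. Markers of pole cells and germ plasm summed to 87.5 to 111 CPM in the combined genotype, 127 to 169 CPM in Drp1SG, 57.8 to 112 CPM in SOD2i and 51.1 to 81.9 CPM in Control, and 3 of 4 were called higher in Drp1SG than in Control. Of the 6 stage markers with reads, 2 were called lower in Drp1SG. In the same comparison, 1 of 3 markers of late neurons and glia and 1 haemocyte marker were called higher, and 0 of 3 muscle markers were called. The part of these differences in the levels of the mitochondrial transcripts was not tested.

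In SOD2i embryos, 0 of the 8 transcripts passed the threshold relative to Control, where 23.2% of all tested genes were called (edgeR), 12.8% lower and 10.3% higher. At an unadjusted p under 0.05 there were 2, COX1 and srRNA, which pointed in opposite directions. Of the 9863 tested genes, 3473 had such a p. DESeq2 and voom each called 1, srRNA. The 6 messages all had positive log2 fold changes, with values of 0.13 for ATP6, 0.23 for COX2, 0.26 for CYTB, 0.32 for ATP8, 0.37 for COX3 and 0.38 for COX1, against a median over all tested genes of 0.00. That shared direction depended on single libraries. Without Control replicate 2, ATP6 stood at -0.09 and CYTB at 0.04, and without SOD2i replicate 3 ATP8 stood at 0.10; ATP6 was also negative without SOD2i replicate 2. The lrRNA value was 0.14 and the srRNA value -0.89. Without Control replicate 3, COX2 was called higher in SOD2i (0.36, adjusted p = 0.0469). Without Control replicate 2 or SOD2i replicate 2, srRNA was called lower (adjusted p = 0.0426 and 0.0198).

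In the combined genotype, of the 8 transcripts, 1 was called lower than in Control, srRNA, and 0 were called higher, where 8.91% of tested genes were called (edgeR), 4.29% lower and 4.62% higher. The oxidase messages and ATP8 had log2 fold changes of -0.08 to 0.04, while CYTB stood at -0.48 (adjusted p = 0.330), ATP6 at -0.45 (0.386) and lrRNA at -0.51 (0.0616). The 95% interval of the COX2 difference was -0.32 to 0.24, which spans modest changes in both directions. The authors' deposited table calls 2 of the 8 lower, srRNA and lrRNA, and its share of all genes called is not given here. The count was 2 without Control replicate 2 or SOD2i replicate 2, where lrRNA was also called (adjusted p = 0.0401 and 0.0411). It was 0 without Control replicate 1 or 3, Drp1SG replicate 3, or combined genotype replicate 1 or 3, and without combined genotype replicate 2 the single call was lrRNA (adjusted p = 0.0392).

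Against the single genotypes, the combined genotype had a mean between theirs for each of the 6 messages. Relative to Drp1SG, 0 of the 8 were called, where 10.9% of tested genes were called (edgeR), 5.82% lower and 5.05% higher. At an unadjusted p under 0.05 there were 4 of the 8, where 2492 of the 9863 tested genes had such a p. Those 4 were ATP8 at 0.62, COX2 at 0.39 and COX1 and COX3 at 0.38 each on the log2 scale, all higher in value in the combined genotype. DESeq2 called 2 of them, COX2 and ATP8 (adjusted p = 0.0346 and 0.0167), and voom called 0. COX2 was called without Control replicate 3 or combined genotype replicate 3 (adjusted p = 0.0262 and 0.0475), and ATP8 without SOD2i replicate 1 or 3 (0.0417 and 0.0270). In the same comparison 5 of 16 unstable maternal transcripts were called lower, and 4 of 4 pole cell markers had negative values with 0 called. Of the other markers, 1 of 3 muscle markers and 1 haemocyte marker were called higher, and 1 of 3 markers of late neurons and glia was called lower. Drp1 itself was lower in the combined genotype than in Drp1SG (-0.94, adjusted p = 0.00126, edgeR). Against Control it was not called (0.28, adjusted p = 0.248). The part of Drp1 and of these markers was not tested. Relative to SOD2i, 1 of the 8 was called lower, lrRNA, where 19.3% of tested genes were called, 8.79% lower and 10.5% higher, and the 8 log2 fold changes ran from -0.74 for CYTB to -0.27 for COX2. The count was 4 without combined genotype replicate 2, with COX1, COX2 and CYTB added, 2 without Control replicate 2 or 3, with COX1 added, and 0 without combined genotype replicate 3. Of the 6 stage markers with reads, 3 were also called lower in the combined genotype than in SOD2i. All 3 muscle markers were called higher there, and 1 of 3 markers of late neurons and glia was called lower. The part of these markers in these values was not tested.

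The interaction asks whether SOD2i changed a transcript by another factor in Drp1SG embryos than in Control embryos. It was called for 0 of the 8 transcripts, where 16.5% of tested genes were called (edgeR), 7.34% lower and 9.2% higher. At an unadjusted p under 0.05 there were 0 of the 8, where 2898 of the 9863 tested genes had such a p. DESeq2 and voom also called 0. The value was largest for srRNA, at 0.85 ± 0.43 on the log2 scale (adjusted p = 0.221), with a 95% interval of -0.10 to 1.80. For COX1 it was 0.00, with an interval of -0.50 to 0.50. A p above the threshold does not show that the effects were equal.

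**Figure D3:**
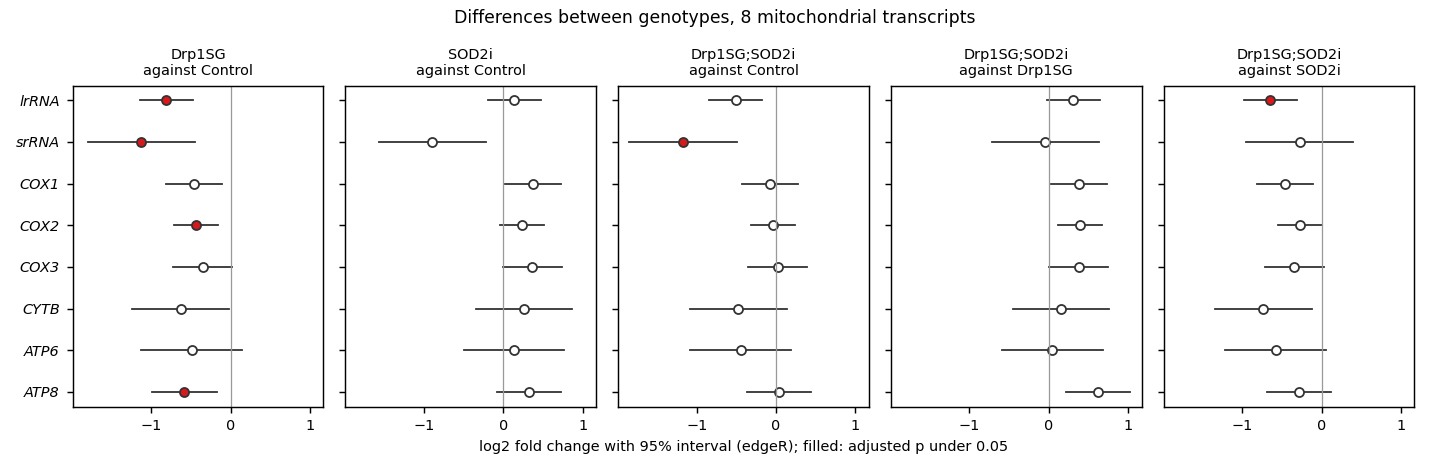
Log2 fold change of each transcript in 5 comparisons, with 95% intervals from the edgeR fit of all 12 libraries; filled points passed an adjusted p of 0.05 over all tested genes. In Drp1SG against Control all 8 points lie below 0 and 4 are filled, and in SOD2i against Control none is filled.

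Ratios of reads within a library do not depend on the scaling of library sizes. Each ratio was compared on the log2 scale as the mean of the differences in the 2 backgrounds. For Drp1SG these are the combined genotype minus SOD2i and Drp1SG minus Control, and for SOD2i they are the combined genotype minus Drp1SG and SOD2i minus Control. Exact two-sided permutation tests within backgrounds had 400 arrangements, so 0.005 was the smallest p they could give, and p were adjusted over 10 tests. The 8 transcripts together took 7.67 ± 1.25% of counts in the combined genotype, 6.20 ± 0.514% in Drp1SG and 10.5 ± 0.849% in SOD2i, against 9.85 ± 1.75% in Control (SD, n = 3 each). This share, which is mostly lrRNA, is given as a description.

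Ribosomal reads were lower relative to messenger reads where Drp1SG was present. Reads of lrRNA and srRNA per read of the 6 messages were 2.81, 2.76 and 3.06 in the combined genotype, 3.10, 2.76 and 2.93 in Drp1SG and 3.39, 3.12 and 3.34 in SOD2i, against 3.45, 4.04 and 3.80 in Control. The 6 libraries with Drp1SG all lay below the 6 without it. The Drp1SG difference was -0.28 on the log2 scale (exact permutation p = 0.005, adjusted p = 0.0125), made of -0.19 with SOD2i present and -0.36 without it. Because nearly all ribosomal reads were lrRNA, averaging log2 CPM with equal weight for each gene gave -0.23 (exact permutation p = 0.08), which no longer passed the threshold. The SOD2i difference was -0.11 (exact p = 0.085, adjusted p = 0.121), and with equal weight for each gene it was -0.43 (unadjusted exact p = 0.005). The read-based difference had an unadjusted exact p of 0.04 without Drp1SG replicate 2 and 0.03 without combined genotype replicate 3.

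The 2 ribosomal RNAs did not keep a fixed proportion. There were 10594, 11648 and 11321 reads of lrRNA per read of srRNA in the combined genotype, 10403, 7125 and 9882 in Drp1SG and 13705, 11495 and 23195 in SOD2i, against 6722, 8007 and 6800 in Control. SOD2i libraries lay above Control libraries, and libraries of the combined genotype above those of Drp1SG, without overlap. The ratio was 0.71 higher with SOD2i on the log2 scale (exact permutation p = 0.005, adjusted p = 0.0125), made of 0.31 with Drp1SG present and 1.11 without it. Leaving out each library in turn gave 0.56 to 0.81 and p of at most 0.015. The Drp1SG difference was -0.06 (exact p = 0.84), with values of opposite sign in the 2 backgrounds (-0.46 with SOD2i and 0.33 without it).

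Relative to the mitochondrially encoded messages of complex I, the summed reads of the 6 messages were higher where SOD2i was present. Their reads per complex I message read were 10.3, 9.61 and 9.50 in the combined genotype, 7.19, 6.71 and 7.14 in Drp1SG and 8.08, 7.86 and 7.99 in SOD2i, against 6.65, 7.50 and 6.95 in Control. The combined genotype lay above all other libraries, and SOD2i above both Drp1SG and Control. COX1 and COX3 supplied most of the message reads, with 580971 and 378405 of 1272615 in combined genotype replicate 1. The SOD2i difference was 0.33 on the log2 scale (exact permutation p = 0.005, adjusted p = 0.0125), made of 0.48 with Drp1SG present and 0.18 without it. It stayed between 0.31 and 0.36 with each library left out, and equal weight for each gene gave 0.37 (unadjusted exact p = 0.005). In the combined genotype against Drp1SG, ATP6 (0.05) and CYTB (0.15) lay within the complex I range of -0.57 to 0.15, the other messages above it. In SOD2i against Control, ATP6 (0.13), COX2 (0.23) and CYTB (0.26) lay within the range of -0.28 to 0.28, the other messages above it. The Drp1SG difference was 0.15 (exact p = 0.055, adjusted p = 0.0917), made of 0.30 with SOD2i present and -0.00308 without it. Without Control replicate 2 or Drp1SG replicate 2 its unadjusted exact p was 0.02 and 0.035 in that order.

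CYTB is transcribed from the same strand as the oxidase and ATPase messages but lies in another stretch of the circle, next to ND6. CYTB reads per read of those 5 messages were 0.130, 0.146 and 0.119 in the combined genotype, 0.145, 0.181 and 0.133 in Drp1SG and 0.174, 0.184 and 0.141 in SOD2i, against 0.199, 0.148 and 0.180 in Control. The genotypes overlapped. The Drp1SG difference of -0.27 (exact permutation p = 0.055, adjusted p = 0.0917) and the SOD2i difference of -0.14 (exact p = 0.215, adjusted p = 0.239) did not pass the threshold. Without Drp1SG replicate 2, Control replicate 2, SOD2i replicate 3 or combined genotype replicate 2, the Drp1SG difference had an unadjusted exact p of 0.03, 0.035, 0.025 and 0.045 in that order.

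**Figure D4:**
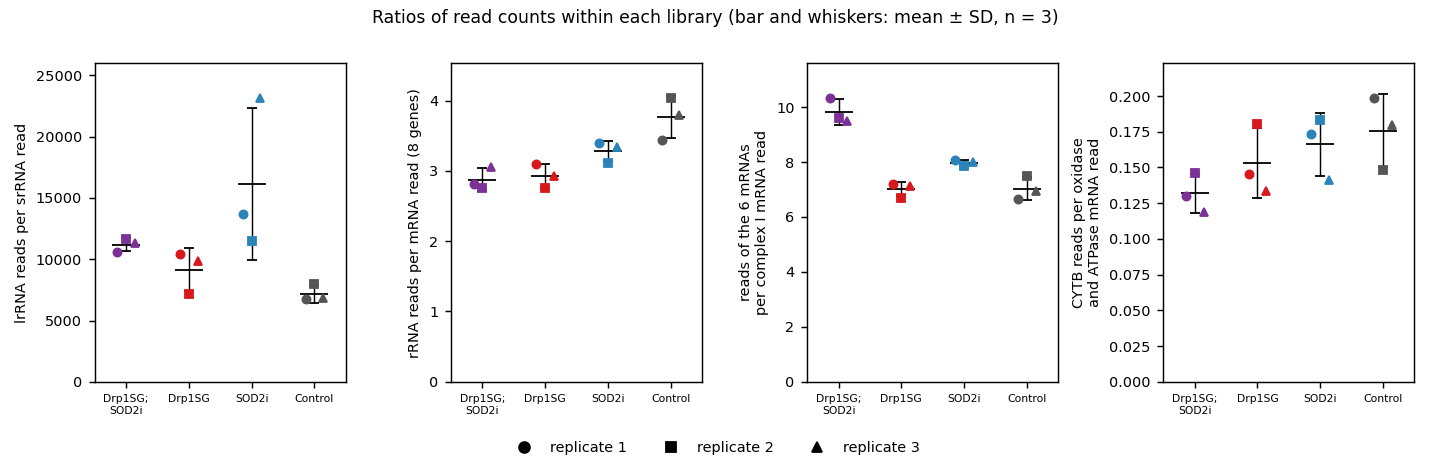
Read ratios within each library, from left to right lrRNA per srRNA, ribosomal per messenger reads of the 8 genes, the 6 messages per complex I message, and CYTB per oxidase and ATPase message; points are libraries by replicate, bars are means and whiskers 1 SD (n = 3 per genotype). The third panel shows the combined genotype at 9.50 to 10.3, above all other libraries.

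The 7 complex I messages themselves set the last comparison. Their calls stand beside those of all tested genes (edgeR). These were 8.91% in the combined genotype against Control and 19.3% against SOD2i, and 18.6% in Drp1SG and 23.2% in SOD2i against Control. In the combined genotype, ND2, ND4L and ND5 fell relative to Control (log2 fold changes -0.74, -0.55 and -0.59, adjusted p = 0.0154, 0.0461 and 0.0451, edgeR), and ND1, ND4, ND4L and ND5 fell relative to SOD2i (-0.67, -0.95, -0.67 and -0.70, adjusted p = 0.0383, 0.0262, 0.0108 and 0.0127). In Drp1SG, 1 of 7 was called lower than in Control, ND4L at -0.53 (adjusted p = 0.0320), and in SOD2i 0 of 7 were called, with none at an unadjusted p under 0.05. In SOD2i against Control, 3473 of the 9863 tested genes had such an unadjusted p. ND3 and ND6 were called in no comparison, with log2 fold changes against Control of -0.86 and -0.42 in the combined genotype. The authors' deposited table calls 5 of the 7 lower in the combined genotype, ND3 and ND4 besides those 3. It comes from a DESeq2 fit, and its share of all genes called is not given here. The median over the 7 in the combined genotype against Control was -0.59, and over the 6 oxidase, ATPase and CYTB messages it was -0.06.

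Some nuclear genes that act on these transcripts were called. Of all tested genes, 18.6% were called in Drp1SG, 23.2% in SOD2i and 8.91% in the combined genotype against Control (edgeR). The share was 10.9% for the combined genotype against Drp1SG, 19.3% against SOD2i and 16.5% for the interaction. Whether the lists below exceed these shares was not tested. The comparisons with Control share the Control libraries. Of 5 tested genes of mitochondrial transcription, 2 fell in Drp1SG relative to Control, the initiation factor mtTFB2 (log2 fold change -0.28, adjusted p = 0.0388, edgeR) and the termination factor mTTF (-0.41, adjusted p = 0.00642). The symbol PolrMT was not found and mtTFB1 had no reads, so neither was tested. TFAM, which packages and activates the mitochondrial genome, rose in SOD2i (0.27, adjusted p = 0.0123) and was lower in the combined genotype than in SOD2i (-0.25, adjusted p = 0.0236). Of 10 tested genes of mitochondrial RNA processing and stability, bsf fell in all 3 genotypes. It is the fly relative of LRPPRC, a protein that stabilises mitochondrial messages, and it averaged 99.7 ± 3.27 CPM in the combined genotype, 87.3 ± 6.99 CPM in Drp1SG and 63.8 ± 6.17 CPM in SOD2i, against 130.7 ± 4.69 CPM in Control (SD, n = 3 each). Its log2 fold changes against Control were -0.39, -0.58 and -1.04 in that order (adjusted p = 0.0134, 6.59e-04 and 7.03e-06). In the combined genotype bsf was higher than in SOD2i (0.64, adjusted p = 4.39e-04, edgeR), and its interaction was 1.23 (adjusted p = 2.85e-05).

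A subunit of the mitochondrial RNase P, scu, rose in each single genotype but was not called in the combined one. It averaged 60.4 ± 3.10 CPM in the combined genotype, 95.9 ± 2.01 CPM in Drp1SG and 100.2 ± 8.90 CPM in SOD2i, against 64.2 ± 8.54 CPM in Control, and its interaction was -1.31 (adjusted p = 6.19e-05, edgeR). MTPAP, the mitochondrial poly(A) polymerase, fell in SOD2i (-0.59, adjusted p = 0.00921) and was higher in the combined genotype than in SOD2i (0.55, adjusted p = 0.0180). Of 5 tested genes of mitochondrial DNA maintenance, the topoisomerase gene Top3alpha fell in all 3 genotypes against Control (-0.41 in the combined genotype, -0.31 in Drp1SG and -0.70 in SOD2i, adjusted p = 0.00624, 0.0131 and 5.42e-05). Interactions were called for Top3alpha (0.61, adjusted p = 0.00224) and tam (0.74, adjusted p = 0.0321). The helicase gene mtDNA-helicase rose in Drp1SG (0.43, adjusted p = 0.0134), and mtSSB, which binds single-stranded DNA, fell in SOD2i (-0.74, adjusted p = 0.0284). The level of mtSSB was low, at 0.851 ± 0.195 CPM in SOD2i against 1.42 ± 0.312 CPM in Control (SD, n = 3 each). The catalytic subunit of the mitochondrial DNA polymerase, tam, was higher in the combined genotype than in Drp1SG (0.71, adjusted p = 0.0104).

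Nuclear subunits of complexes IV and V are read against the share of all tested genes called, which was 18.6% in Drp1SG, 23.2% in SOD2i and 8.91% in the combined genotype against Control. Of 9 tested nuclear subunits of complex IV, COX6B rose and COX7A fell in Drp1SG against Control (0.23 and -0.27, adjusted p = 0.0134 and 0.0121, edgeR), both moved the same way in the combined genotype (0.21 and -0.30, adjusted p = 0.0413 and 0.0148), and COX7A fell in SOD2i (-0.25, adjusted p = 0.0159). Of 13 nuclear subunits of complex V, blw, the alpha subunit, and ATPsyngamma rose in Drp1SG (0.40 and 0.31, adjusted p = 0.0108 and 0.0194), and ATPsynCF6 rose in SOD2i (0.18, adjusted p = 0.0445). ATPsyngamma was lower in the combined genotype than in Drp1SG (-0.32, adjusted p = 0.0249), and its interaction was -0.47 (adjusted p = 0.0146). The complex IV subunit COX4 had an interaction of 0.36 (adjusted p = 0.0255). Of 7 tested nuclear subunits of complex III and 5 tested genes of oxidase and ATPase assembly, 0 were called in any of the 6 comparisons by edgeR. Of 12 listed assembly symbols only 6 were found, and Ccdc56 among them had no reads, so much of the assembly list was not tested. At an unadjusted p under 0.05, complex III had at most 2 in a comparison and the assembly genes at most 1. Of the 9863 tested genes, 2358 to 3473 had such a p, depending on the comparison.

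Among named nuclear genes with a mean of at least 5 CPM, those whose log2 CPM followed the mean of the 8 transcripts most closely over the 12 libraries were unk, odd, Rpb12, Lamp1 and l(2)k09848, with Pearson r of 0.89, 0.89, 0.87, 0.87 and 0.86. The pair-rule gene odd averaged 131 ± 19.3 CPM in the combined genotype, 122 ± 8.00 CPM in Drp1SG and 198 ± 26.6 CPM in SOD2i, against 172 ± 19.5 CPM in Control. Of the complex I messages, ND1 followed the mean at r = 0.96, ND4 at 0.88 and ND5 at 0.85, and ND2 at 0.51 was the least close. These r describe libraries that share genotypes and scaling, and they carry no test.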

How the data were processed

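RNA was sequenced from poly(T)-captured libraries made from 200 ng of total RNA, per the labels' protocols. Per the submitters' processing notes, the tools were featureCounts 1.5.2, HISAT2 2.1.0, Bowtie2 2.2.4, DESeq2 and Trimmomatic; which tool did which step is not given there. The genome build, the annotation and the strand setting of counting are not given in the sources used here, so no coordinates are given. The authors deposited raw counts per gene, which were tested here, and for each genotype against Control a log2 fold change and its p-values.

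All 12 libraries were fitted together in edgeR 4.0.16 (R 4.3.3), with 1 mean per genotype, after filterByExpr and TMM scaling. This left 9863 genes, all 8 members among them, and calls were made at 0.05 after Benjamini-Hochberg adjustment of the quasi-likelihood test. Alternatives used DESeq2 1.42.0 and limma 3.58.1. Log2 CPM for the spread and the likeness used a prior count of 2. The common biological coefficient of variation was 0.1755. Ratios were tested exactly in Python 3.11.15. All 8 members and the 7 complex I genes are named, of each pathway list up to 4 called genes of smallest adjusted p, and the 5 named nuclear genes most like the members among those with a mean of at least 5 CPM. Gene symbols were matched to Ensembl release 115 for lengths and strands. The members and lists were chosen with earlier results of these data known. The procedure was tested on simulated data. Counts without molecular identifiers are not independent molecules, so limits from a count of 0 cover counting error only.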

Additional observations from a re-analysis of the deposited data

How the results depend on the processing

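Over the 48 values of a transcript in a comparison, 1048 alternative values were computed. Of these, 987 stayed on their side of the threshold, 29 lost a call, 32 gained one and 0 called values changed sign; 49 uncalled values changed sign, with a size of at most 0.227 on the log2 scale. The number of transcripts called in Drp1SG against Control was 4, in SOD2i against Control 0, in the combined genotype 1 against Control, 0 against Drp1SG and 1 against SOD2i. With the DESeq2 Wald test the SOD2i count was 1, and the combined genotype had 2 against Control, 2 against Drp1SG and 3 against SOD2i. With limma and voom the SOD2i count was 1 and the combined genotype had 2 against Control. Upper-quartile scaling, unscaled totals and a filter of 1 CPM in 3 libraries each gave 1 in SOD2i against Control, unscaled totals gave 1 and a fit of only the genotypes compared gave 2 in the combined genotype against Drp1SG. Unscaled totals moved the median log2 fold change of all tested genes by -0.10 in SOD2i against Control and by 0.15 in the combined genotype against SOD2i. They made 75.3% and 17.9% of calls lower there, and 30.2% in the interaction, where TMM gave 55.4%, 45.6% and 44.4%; upper-quartile scaling gave 69.4%, 34.8% and 31.5%. With each library left out in turn, the counts ranged from 1 to 5 in Drp1SG against Control, 0 to 1 in SOD2i against Control, 0 to 2, 0 to 1 and 0 to 4 in the combined genotype against Control, Drp1SG and SOD2i, and stayed at 0 for the interaction.

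The Drp1SG difference in CYTB per oxidase and ATPase message ranged from -0.33 to -0.22 with a library left out, that in the 6 messages per complex I message from 0.13 to 0.17, the SOD2i difference in ribosomal per messenger reads from -0.14 to -0.083 and that in the share of counts from 0.13 to 0.26. Averaging log2 CPM of single genes, where srRNA weighs as much as lrRNA, gave a ribosomal to messenger difference of -0.23 for Drp1SG (exact permutation p = 0.08) and -0.43 for SOD2i (exact permutation p = 0.005). Replicate numbers are not stated to mark a shared source. Deviations of same-numbered libraries correlated at -0.27 to 0.22 over 18 pairs, and 4 of 12 libraries correlated best with their own number. With the replicate block, 2 transcripts were called in Drp1SG against Control, since COX2 and ATP8 had adjusted p of 0.0519 and 0.0559, and the CYTB difference of -0.27 had an exact permutation p of 0.035. The spread between replicates was widest for srRNA, ATP6 and CYTB; srRNA and ATP8 had 239 to 843 and 349 to 813 reads per library, and how far depth limits them was not tested.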
